A study of Mus musculus with 16 samples.

Results

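The regions here were chosen for a higher level in 5-hydroxymethylcytosine (5hmC) pull-downs of mouse induced regulatory T cells (iTreg) made with TGFβ alone. The comparison was with iTreg that also received retinoic acid (RA) and vitamin C (VitC). A region was kept when its mean level over the 2 TGFβ iTreg pull-downs was 10 CPM (reads of a region scaled to the library's total in all regions) or more and at least 2 times the mean of the 2 RA+VitC iTreg pull-downs, with the lower TGFβ library above the higher RA+VitC library. Of 177720 regions, 21056 reached 10 CPM in TGFβ iTreg and 1261 met the whole rule, which is 0.710% of all regions and 5.99% of those at 10 CPM or more. The levels in these 4 libraries chose the regions, so they are given below as a description. Levels in sorted regulatory T cells (Treg), in naive T cells and in the inputs played no part in the choice. A level is a share of a library's reads and not an amount of 5hmC. In 180 of the 1261 regions the TGFβ iTreg pull-downs were at or below their input.

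The study mapped 5hmC by CMS-IP, in which bisulfite treatment converts 5hmC to CMS (cytosine-5-methylenesulfonate), and DNA with CMS is then captured by an anti-CMS serum. Per the labels, all cells were CD4 T cells of C57BL/6 Foxp3-eGFP reporter mice, 5 to 6 weeks old, from spleen and lymph nodes. TGFβ iTreg and RA+VitC iTreg were differentiated from naive cells with TGFβ in both cultures. RA and VitC were always given together and no culture lacked TGFβ, so their separate effects cannot be told apart. Treg were sorted as CD4+eGFP+ and naive cells as CD4+eGFP-CD25- with further surface markers of the naive state. For each of the 4 groups, 2 pull-downs and 2 inputs were sequenced. Nothing in the labels ties the members of a pair to separate mice or cultures, so a p-value reflects library-to-library spread that may be technical only.

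As background, TET dioxygenases oxidise 5-methylcytosine to 5hmC and then to further forms that the cell replaces with unmodified cytosine. 5hmC therefore marks enhancers and gene bodies on which TET enzymes act, and it can fall again once demethylation is complete. VitC raises TET activity, and RA together with TGFβ favours Foxp3 expression in cultured CD4 T cells. Stable Foxp3 expression in Treg goes with an unmethylated intronic enhancer of Foxp3. CMS-IP reads 5hmC only. A low level may stand over unmodified, methylated or further oxidised cytosine, and fewer cells with the mark and less mark per cell give the same reading, so these cannot be told apart.

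In the set 41 regions covered a transcription start, among them both annotated starts of Foxp3, the lineage transcription factor of Treg, and the starts of Il2ra, which encodes the interleukin-2 receptor chain CD25, and Gpr15, which encodes a homing receptor of T cells for the large intestine. Their promoter sequences are shown because regions described below by locus cover these starts. The Foxp3 region begins 0.103 kb before the upstream start, so the first part of that sequence lies outside it. It ends 6.38 kb after that start, so the promoter sequences are a small part of it. The sequences run from 250 bases before to 50 after each start, 5′ to 3′ on the gene's strand, with each CG, the dinucleotide in which 5hmC is mostly found, in capitals. Sequences and positions are those of RefSeq on GRCm38.p6, while all region positions in the text are on mm9.
Foxp3, upstream start, chrX:7579426-7579725, plus strand: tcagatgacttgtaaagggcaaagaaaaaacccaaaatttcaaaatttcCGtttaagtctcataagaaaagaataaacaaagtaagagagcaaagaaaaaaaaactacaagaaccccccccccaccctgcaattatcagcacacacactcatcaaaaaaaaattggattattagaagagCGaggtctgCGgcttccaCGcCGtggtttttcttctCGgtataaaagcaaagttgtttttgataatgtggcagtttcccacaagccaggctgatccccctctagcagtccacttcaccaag
Foxp3, downstream start, chrX:7580233-7580532, plus strand: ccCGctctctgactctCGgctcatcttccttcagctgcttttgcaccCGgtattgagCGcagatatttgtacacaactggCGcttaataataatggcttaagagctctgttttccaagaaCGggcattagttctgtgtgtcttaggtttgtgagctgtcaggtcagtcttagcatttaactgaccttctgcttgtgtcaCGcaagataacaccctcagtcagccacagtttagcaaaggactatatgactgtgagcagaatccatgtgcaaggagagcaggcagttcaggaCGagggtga
Il2ra, chr2:11642542-11642841, plus strand: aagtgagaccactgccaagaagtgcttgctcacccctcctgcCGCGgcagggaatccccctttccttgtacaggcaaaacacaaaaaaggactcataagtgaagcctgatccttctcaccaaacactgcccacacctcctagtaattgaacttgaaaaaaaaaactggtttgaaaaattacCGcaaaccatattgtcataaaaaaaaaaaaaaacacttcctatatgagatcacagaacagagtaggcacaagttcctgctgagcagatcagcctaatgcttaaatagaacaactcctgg
Gpr15, chr16:58718823-58719122, minus strand: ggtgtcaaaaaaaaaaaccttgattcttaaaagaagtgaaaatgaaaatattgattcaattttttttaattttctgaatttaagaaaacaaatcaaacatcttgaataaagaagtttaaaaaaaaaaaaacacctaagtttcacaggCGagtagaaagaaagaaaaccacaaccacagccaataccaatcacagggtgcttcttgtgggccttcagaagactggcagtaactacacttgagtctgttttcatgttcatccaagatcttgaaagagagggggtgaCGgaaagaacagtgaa
The sequences held 6 and 8 CG at the starts of Foxp3, 3 at Il2ra and 2 at Gpr15. None of these counts was high: 56.4% and 48.7% of all 32851 promoters in the table had as many or more CG as the Foxp3 starts, and 76.7% and 85.9% as many or more as Il2ra and Gpr15. For the 41 starts covered, 27 genes had 39 promoter sequences in the table. Each was searched on both strands for CAGAC, a core bound by SMAD proteins, for TGANTCA, bound by AP-1, for TTCNNNGAA, bound by STAT proteins, and for AGGTCA, a core bound by nuclear receptors, and matches of different motifs could overlap. CAGAC stood in 21 of the 39 (53.8%, against 49.6% of all promoters), TGANTCA in 5 (12.8% against 7.81%), TTCNNNGAA in 4 (10.3% against 8.30%) and AGGTCA in 9 (23.1% against 16.3%). These are letter matches in a fixed window and say nothing of binding.

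Over the 1261 regions the median level was 15.7 CPM in TGFβ iTreg, 6.25 CPM in RA+VitC iTreg, 6.38 CPM in Treg and 5.93 CPM in naive cells. The median ratio of TGFβ over RA+VitC iTreg was 2.41, while it was 1.05 over all 21056 regions at 10 CPM or more in TGFβ iTreg. Reads in these regions made up 2.65% of the reads in both TGFβ iTreg pull-downs, against 1.03% and 1.07% in RA+VitC iTreg. The shares in the sorted cells were 1.06% and 1.04% in Treg and 1.09% in both naive libraries. The higher share in TGFβ than in RA+VitC iTreg follows from the rule. In the inputs the share was 1.19% in both TGFβ libraries and 1.18% and 1.22% in the RA+VitC libraries.

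The TGFβ iTreg libraries were the shallowest pull-downs, with 1648804 and 2114056 reads in regions against 3996442 and 3828487 in RA+VitC iTreg. The sorted cells had 7664194 to 9731897 and the inputs 1028822 to 1563165. A median region of the set rested on 26 and 34 reads in TGFβ iTreg and on 25 in each RA+VitC library. TGFβ iTreg also had fewer pull-down reads per input read, 1.49 and 1.72, against 3.88 and 3.14 in RA+VitC iTreg, while sorted cells had 4.90 to 6.39. This is a ratio of read totals in regions, which sequencing depth also sets, and its part in the results was not tested. In a library with no read in a region, 3 reads bound its level, or 1.82 and 1.42 CPM for TGFβ iTreg, 0.751 and 0.784 CPM in RA+VitC iTreg, and between 0.308 and 0.391 CPM for sorted cells, for counting error only. Scaling mattered for the size of the set. With library sizes scaled by TMM in edgeR, 731 regions met the rule, all of them among the 1261, and with the size factors of DESeq2 755 did.

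The rule turned round, RA+VitC over TGFβ iTreg, kept 940 regions, 4.66% of the 20157 at 10 CPM or more in RA+VitC iTreg. Under TMM scaling the order of the 2 counts was reversed, with 731 regions higher in TGFβ and 2028 higher in RA+VitC iTreg. Applied to the inputs, where no pull-down was done, the same rule kept 352 regions for TGFβ over RA+VitC and 380 for the reverse, 1.52% and 1.62% of the input regions at that level. The plot of the share kept at each level shows where they lay. Between 10 and 15 CPM the rule kept 598 regions in pull-downs and 296 in inputs, and between 15 and 20 CPM 240 and 46. From 20 to 40 CPM it kept 316 and 10, and at 40 CPM or more 107 and 0. The lowest level is therefore the one where regions of the set and differences between unenriched libraries were most alike in number.

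**Figure D1:**
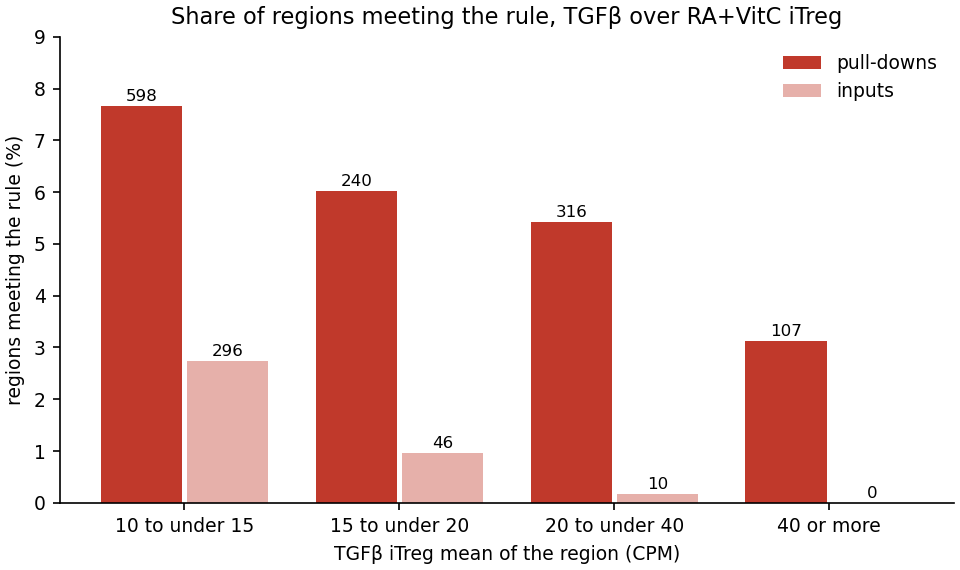
Percent of regions that met the rule (TGFβ over RA+VitC iTreg) by the region's mean level in TGFβ iTreg, for pull-downs (dark bars, left) and inputs (light bars, right), with the number of regions above each bar. In pull-downs the share runs between 3.13% and 7.66%, and in inputs it is 2.74% at 10 to 15 CPM and 0 at 40 CPM or more.

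The edgeR fit of the 8 pull-downs called 1093 of the 1261 regions higher in TGFβ than in RA+VitC iTreg at an adjusted p under 0.05, where 1.98% of all 135412 tested regions were called in this direction. Since the rule used the same contrast, nothing is read from this count. Regions just inside the fold limit lay near Nmur1 (57.8 CPM in TGFβ, 28.9 CPM in RA+VitC iTreg), over Ptgfrn (26.1 and 13.0 CPM) and over Flt3 (35.6 and 17.8 CPM). Just outside it were regions near Ak1 (25.3 and 12.6 CPM) and over Srgap2 (14.6 and 7.29 CPM) and Paqr8 (11.5 and 5.77 CPM).

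The levels in naive cells and Treg split the set. In 814 regions (64.6%) the TGFβ iTreg mean was at least 2 times the naive mean, and in 821 (65.1%) it was at least 2 times the Treg mean. In 939 (74.5%) both TGFβ libraries stood above all 4 libraries of sorted cells. Over all regions at 10 CPM or more in TGFβ iTreg these shares were 23.2%, 19.5% and 36.5%. In the other direction, 238 regions (18.9%) had a naive mean at least 2 times the RA+VitC iTreg mean, and 193 (15.3%) such a Treg mean. Over all regions at 10 CPM or more in TGFβ iTreg it was 7.82% and 5.31%. The rule chose high TGFβ and low RA+VitC values, so these counts describe the set and support nothing beyond it. Across the 1261 regions naive and Treg levels ran together, with a Pearson correlation of 0.866 on log2(CPM + 0.5), against 0.922 over the other 19795 regions at 10 CPM or more in TGFβ iTreg. This describes regions that share libraries, depth and base composition.

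Steps of 2-fold, chosen after the values were seen, sort the set into 3 classes. The iTreg-wide class has 435 regions (34.5%) in which both kinds of iTreg were at least 2 times the naive mean. The TGFβ-only class has 379 (30.1%) in which TGFβ iTreg were at least 2 times the naive mean and RA+VitC iTreg were not. In the naive-level class, 447 regions (35.4%), TGFβ iTreg were under 2 times the naive mean.

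Median levels in the iTreg-wide class were 17.5 CPM in TGFβ iTreg, 6.51 CPM in RA+VitC iTreg, 2.73 CPM in Treg and 1.62 CPM in naive cells. The rule and the class limit put TGFβ iTreg above RA+VitC iTreg and these above naive cells. Treg, whose levels ran with the naive ones and so were not free of the class limit, lay between them in 341 of the 435 regions. This order of the 4 groups held in 12.9% of all regions at 10 CPM or more in TGFβ iTreg. Most of those were not bound by the rule and class limit, so the 2 shares are not like for like. In the TGFβ-only class the medians were 16.9 CPM in TGFβ iTreg, 6.26 CPM in RA+VitC iTreg, 5.87 CPM in Treg and 5.27 CPM in naive cells. TGFβ iTreg were at least 2 times the naive and RA+VitC means here by choice, and they were at least 2 times the Treg mean in 299 of the 379 regions, while Treg were the highest group in 14. In the naive-level class they were 13.8 CPM in TGFβ iTreg, 6.02 CPM in RA+VitC iTreg, 11.7 CPM in Treg and 14.0 CPM in naive cells. RA+VitC iTreg were below TGFβ iTreg and naive cells in this class by the rule and the class limit. Treg, whose levels ran with the naive ones, were above RA+VitC iTreg too in 388 of 447 regions. Over all regions at 10 CPM or more in TGFβ iTreg, RA+VitC iTreg were below Treg and naive cells in 38.7%. Here too most of those regions were free of the rule and class limit, so the shares are not like for like.

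**Figure D2:**
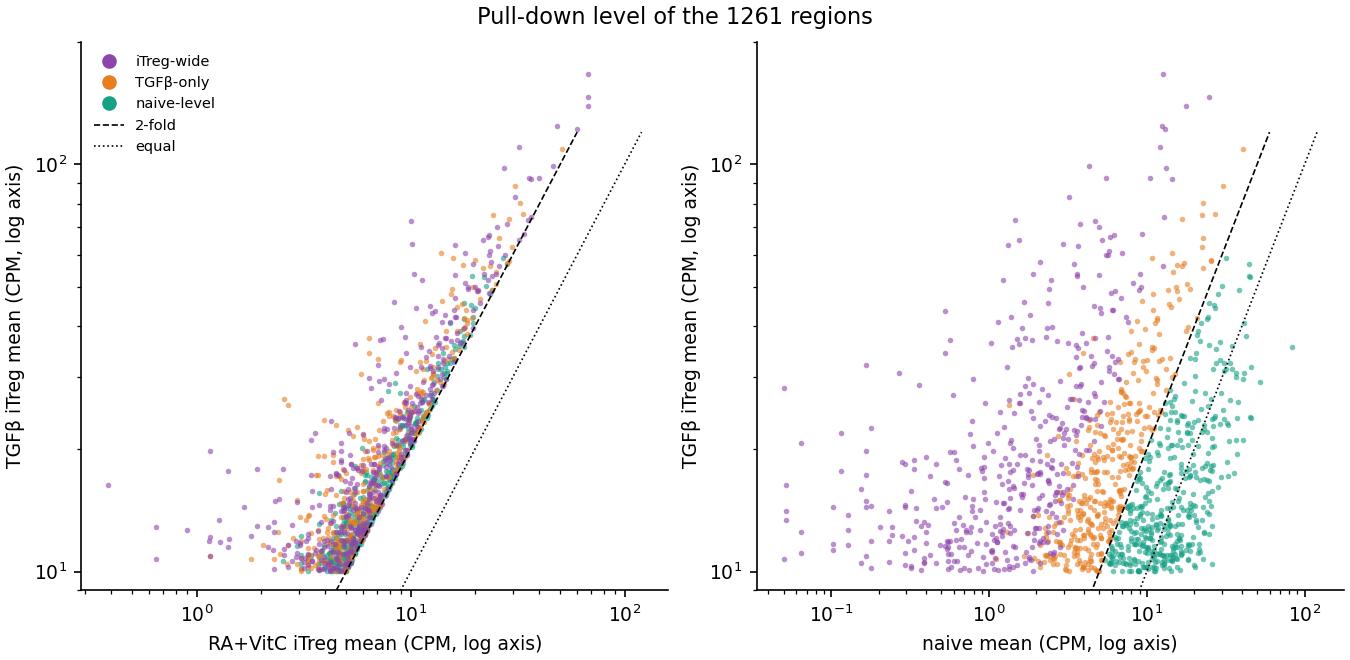
Mean pull-down level in TGFβ iTreg (vertical, CPM, log axis) against RA+VitC iTreg (left) and naive cells (right) for each of the 1261 regions, with naive means under 0.05 CPM drawn at 0.05 and lines at equal and 2-fold levels. All regions lie at or above the 2-fold line on the left by choice, while on the right the 435 iTreg-wide, 379 TGFβ-only and 447 naive-level regions spread from far above that line to below the line of equality.

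The classes also differed in their levels against inputs. The TGFβ and RA+VitC iTreg means used here also chose the set and its classes. These shares therefore describe the classes and give no separate support for them. The TGFβ iTreg pull-down was at least 2 times its own input in 402 of 435 iTreg-wide regions (92.4%) and in 280 of 379 TGFβ-only regions (73.9%), but in 77 of 447 naive-level regions (17.2%). In the whole set it was 759 of 1261 (60.2%), and 180 regions (14.3%) were at or below their TGFβ input. Over all regions at 10 CPM or more in TGFβ iTreg these shares were 23.3% and 33.3%. RA+VitC iTreg were below their own input in 377 of 447 naive-level regions (84.3%), with a median of 0.534 times the input, and in 82 of 435 iTreg-wide regions (18.9%), with a median of 1.61 times the input. In naive-level regions a TGFβ pull-down near the level of its input thus stood against an RA+VitC pull-down under its input. The pull-down reads per input read given above are ratios of read totals that sequencing depth also sets. They do not by themselves measure enrichment, and their part was not tested.

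**Figure D3:**
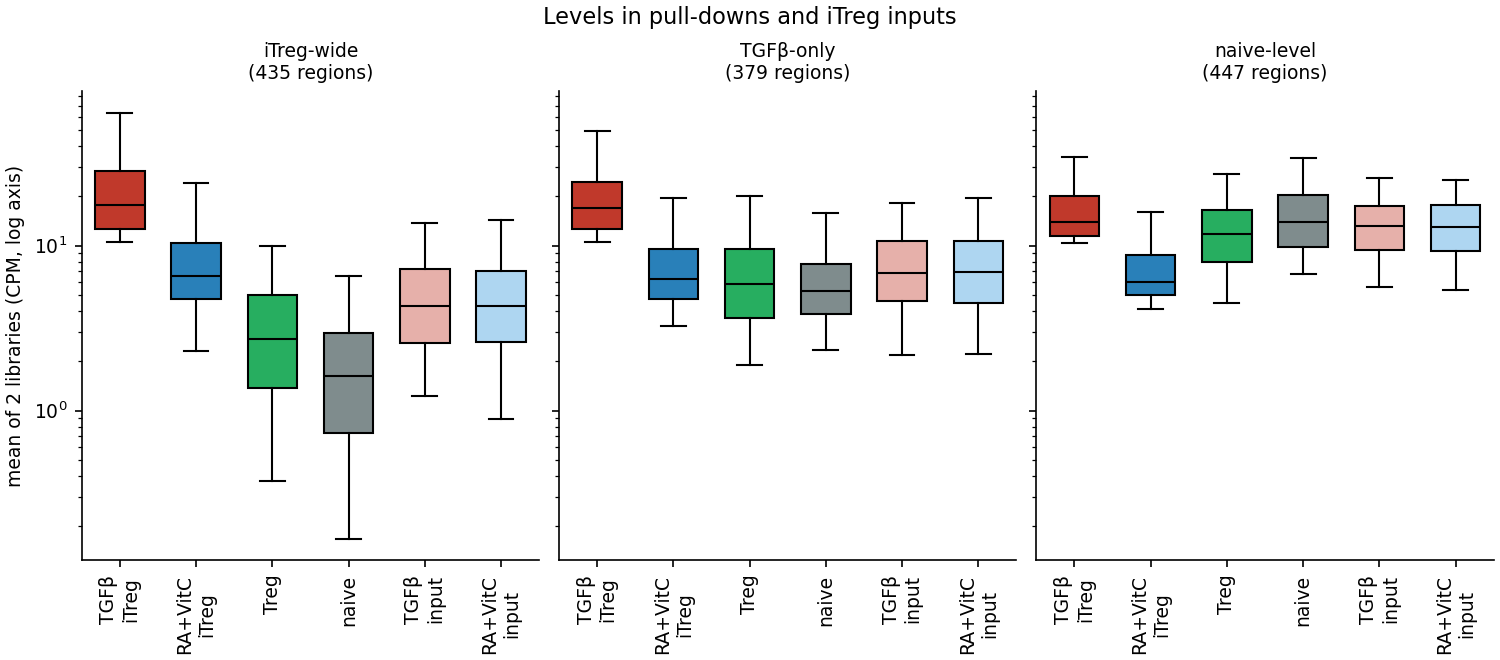
Mean level (CPM, log axis) of the regions of each class in the pull-downs of TGFβ iTreg, RA+VitC iTreg, Treg and naive cells and in the inputs of both iTreg, with boxes from the lower to the upper quartile, the median as a line and whiskers at the 5th and 95th percentiles, and values under 0.1 CPM drawn at 0.1. TGFβ iTreg stand above their input in the iTreg-wide class (median 17.5 against 4.29 CPM) and near it in the naive-level class (13.8 against 13.0 CPM), where RA+VitC iTreg have a median of 6.02 CPM.

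Whether Treg and naive cells differed at these regions is a question the rule left free. In the edgeR fit over all 135412 regions, 274 of the 1261 regions (21.7%) were higher and 276 (21.9%) lower in Treg than in naive cells at an adjusted p under 0.05. Over all tested regions 13.0% were higher and 10.1% lower. Over the regions at 10 CPM or more in TGFβ iTreg the shares were 21.1% and 21.6%, so the set was near the shares of regions of like level. The median log2 fold change of the set was 0.01, and 711 regions passed in neither direction. Among the 759 regions at least 2 times their TGFβ input, 166 were higher and 106 lower in Treg, and among the other 502 it was 108 and 170. DESeq2 called fewer, 154 higher and 120 lower, where it called 3.16% of all 177720 regions higher and 1.34% lower.

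The strongest rises in Treg stood on regions that were low in naive cells. The region near the RIKEN gene 4930429F11Rik (chr17:79852773-79855390, intergenic) had 11.2 and 9.70 CPM in Treg against 1.03 and 0.822 CPM in naive cells, with 13.9 and 17.5 CPM in TGFβ and 4.75 and 5.22 CPM in RA+VitC iTreg. Treg were 3.46 log2 units higher there (SE 0.29, adjusted p = 1.2e-29). An intronic region of Fabp12, a fatty acid binding protein gene, was 3.36 log2 units higher in Treg (SE 0.41, adjusted p = 3.2e-14), at 5.61 and 4.43 CPM against 0.772 and 0.206 CPM in naive cells. Regions in Nbeal1 (adjusted p = 1.7e-05) and near Tdpoz2 (1.7e-06), Nrp1 (8.9e-09) and Tnfrsf13b (0.0019) also passed, with no read in at least 1 naive library each. The edgeR p is given for these without a fold, since the naive level is at its floor, and the call at Tnfrsf13b was lost with DESeq2 and without naive library 2. Thinned to equal depth, the calls at Nbeal1, Tdpoz2 and Tnfrsf13b were lost. Treg means lay under their inputs at 4930429F11Rik, Fabp12, Nbeal1, Tdpoz2 and Tnfrsf13b, and above the input only at Nrp1 (2.42 against 1.02 CPM). RA+VitC iTreg means were under their inputs at 4930429F11Rik and Fabp12, and above them at Nbeal1, Tdpoz2, Tnfrsf13b and Nrp1. At all 6 regions both TGFβ iTreg libraries were above both RA+VitC iTreg libraries by the rule. The 6 were iTreg-wide, and both RA+VitC iTreg libraries were above every naive library. This held in 434 of the 435 regions of that class, so it is not particular to the 6.

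At 4 of the 6 strongest falls in Treg the TGFβ iTreg mean was above the naive mean. Over an exon and intron of Trat1, which encodes an adaptor of the T cell receptor, levels were 0.652 and 0.719 CPM in Treg against 5.15 and 5.55 CPM in naive cells. TGFβ iTreg reached 20.6 and 22.7 CPM there and RA+VitC iTreg 5.50 and 6.53 CPM. Treg were 2.95 log2 units lower (log2 fold change -2.95, SE 0.37, adjusted p = 1.4e-13). Over Nacc2, a transcriptional repressor gene, Treg averaged 3.30 ± 0.42 CPM and naive cells 20.1 ± 1.67 CPM (SD, n = 2 each, log2 fold change -2.62, SE 0.19, adjusted p = 6.1e-41), with 20.0 and 35.5 CPM in TGFβ and 6.76 and 8.88 CPM in RA+VitC iTreg. A region with no symbol at chr2:117813146-117816331 (log2 fold change -2.67) with regions near Npsr1 (-2.65), over Slc4a4 (-2.48) and far upstream of Sel1l (-2.16), completed the 6 largest decreases, of which Npsr1 did not pass when thinned (-1.69). In Nacc2 the Treg and RA+VitC iTreg libraries were all below the naive and TGFβ iTreg libraries, while in Trat1 the RA+VitC iTreg and naive libraries overlapped and TGFβ iTreg stood above both.

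By position the set was less genic than its peers. Of the 1261 regions 669 (53.1%) overlapped a transcript, against 70.9% of the other 19795 regions at 10 CPM or more in TGFβ iTreg. Promoters were touched by 89 (7.06% against 15.8%), exons by 237 (18.8% against 36.7%) and introns by 601 (47.7% against 66.7%). Regions outside transcripts and over 50 kb from the nearest made up 169 (13.4% against 6.20%). The regions were also narrower, with a median of 2057 bp against 4556 bp, which itself lowers the chance of touching a gene part, and no test of position was made. Width differed by class, with medians of 1157 bp in the iTreg-wide, 1826 bp in the TGFβ-only and 3571 bp in the naive-level class. Another region of the set lay within 20 kb of 213 regions (16.9%), while one of the 940 regions higher in RA+VitC iTreg lay within 20 kb of 34 (2.70%). For the other 19795 regions these shares were 6.46% and 6.92%. Every autosome held some, between 4.25% of the regions at 10 CPM or more on chromosome 11 and 8.45% on chromosome 13, and X held 9.

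The 10 highest levels in TGFβ iTreg included the region that covers the starts of Foxp3 and part of the gene downstream of them. An exon and intron of Map2k5, a kinase of the ERK5 pathway, came first with 175 and 158 CPM in TGFβ iTreg against 72.6 and 62.2 CPM in RA+VitC iTreg, and with 21.0 and 18.3 CPM in Treg against 10.9 and 14.5 CPM in naive cells. Iqgap2, a scaffold gene, followed with 149 and 144 CPM in TGFβ against 72.8 and 61.9 CPM in RA+VitC iTreg, and a region upstream of Fut8, a fucosyltransferase gene, with 143 and 136 CPM against 73.3 and 61.9 CPM. Gclc, which encodes the catalytic subunit of the enzyme that starts glutathione synthesis, and Vps54, a tethering factor of the Golgi, had means of 124 and 122 CPM in TGFβ iTreg. Of the 10 highest regions 9 were iTreg-wide, Foxp3 among them, and the region near Itpr2 was TGFβ-only. At this level the RA+VitC iTreg libraries were not empty, with a mean of 67.4 CPM at Map2k5 against an input of 16.4 CPM.

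The largest ratios belonged to narrow regions with few reads in RA+VitC iTreg. An intronic region of Aox2, an aldehyde oxidase gene, had 22.4 and 17.0 CPM in TGFβ iTreg against 1.00 and 1.31 CPM in RA+VitC iTreg, a ratio of 17.1. One upstream of Fut8 had 16.4 and 18.9 CPM against a mean of 1.40 CPM, and one near Npsr1 27.9 and 25.1 CPM against 2.75 and 2.35 CPM. An intronic region of Fam69a had 21.8 and 10.9 CPM in TGFβ iTreg and 0.250 and 0.522 CPM in RA+VitC iTreg, which is 1 and 2 reads, so no ratio is given. Of the 10 regions with the largest ratios, 9 were iTreg-wide, and the region near Npsr1 was TGFβ-only. In the naive cells the 9 had means of at most 0.566 CPM.

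At Foxp3 the region over the start differed in direction from the next region on either side, and at Il2ra it differed from the regions downstream. The region over both Foxp3 starts (chrX:7156699-7163183, promoter, 5′ UTR, exon and intron, assigned by the table to Flicr, a long noncoding RNA gene that overlaps it) had 98.3 and 123 CPM in TGFβ iTreg against 31.3 and 32.9 CPM in RA+VitC iTreg, and 5.35 and 7.43 CPM in Treg against 11.4 and 12.9 CPM in naive cells. The 4 groups did not overlap. The region is 6485 bp wide and lies mostly downstream of the starts, so its level is not that of the promoter alone. Counts per region do not tell which part of it, promoter or intron, carried the reads. Treg were 0.95 log2 units below naive cells (log2 fold change -0.95, SE 0.18, adjusted p = 3.5e-06; thinned to equal depth it was -0.77 and did not pass), and their pull-down mean of 6.39 CPM lay under their input of 14.5 CPM. The next regions on either side went the other way, with 14.5 CPM in TGFβ against 30.5 CPM in RA+VitC iTreg upstream (chrX:7152321-7155923) and 17.0 against 37.9 CPM over the rest of the gene (chrX:7163959-7172345). In the last region Treg had 37.7 CPM and naive cells 15.7 CPM.

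At Il2ra the region over the start (chr2:11563877-11567653, promoter, 5′ UTR, exon and intron) had 69.7 and 75.7 CPM in TGFβ iTreg against 10.8 and 9.40 CPM in RA+VitC iTreg, a ratio of 7.21. Treg had 3.78 and 2.04 CPM and naive cells 5.27 and 4.11 CPM there, a log2 fold change of -0.71 (SE 0.27, adjusted p = 0.041). This call was lost with DESeq2, thinned to equal depth, without Treg library 2 (log2 fold change -0.31) and without naive library 1 (-0.55). RA+VitC iTreg, Treg and naive cells were all below their inputs, which had means of 17.9, 13.8 and 18.5 CPM, and TGFβ iTreg were above theirs at 17.4 CPM. The region next upstream (chr2:11561693-11563153) went the same way as the start, with 47.9 CPM in TGFβ and 28.5 CPM in RA+VitC iTreg. One further upstream (chr2:11533654-11535061) went the other way, with 8.07 and 17.0 CPM. Further into the gene the order was different. The region that follows (chr2:11568438-11596474) had 425 CPM in TGFβ and 578 CPM in RA+VitC iTreg, and the one after it (chr2:11597273-11619124) 108 and 219 CPM. In these the sorted cells followed with 140 and 98.9 CPM in Treg and 76.7 and 16.9 CPM in naive cells. Naive cells were gated as CD25-, the product of Il2ra, and Treg by eGFP from Foxp3, so values at these 2 loci come from cells chosen by their products.

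**Figure D4:**
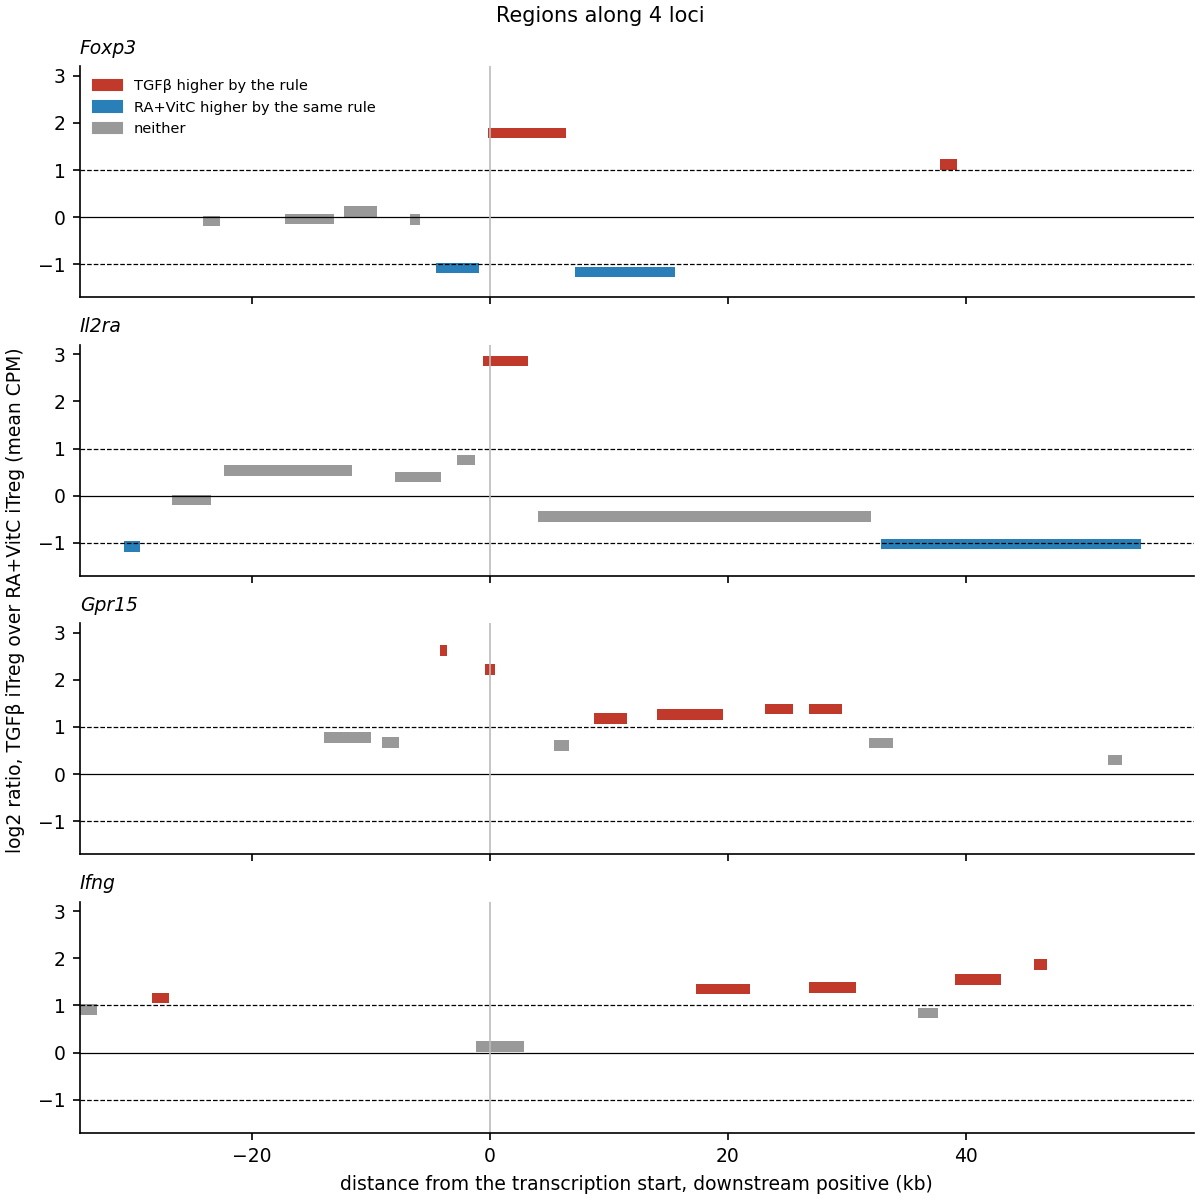
Log2 ratio of mean CPM, TGFβ iTreg over RA+VitC iTreg, of each region with at least 10 CPM in either, drawn over its extent along the Foxp3, Il2ra, Gpr15 and Ifng loci by distance from the upstream start (kb, downstream positive), with dashed lines at 2-fold. At Foxp3 and Il2ra the region over the start is at 1.79 and 2.85 while the region next downstream at Foxp3 is at -1.16 and the second downstream at Il2ra at -1.02, and at Gpr15 and Ifng all regions drawn are above 0.

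Gpr15 had 4 regions of the set among the 8 the table assigns to it. Upstream of the gene (chr16:58722395-58723027) TGFβ iTreg had 20.6 and 23.2 CPM against 4.00 and 3.13 CPM in RA+VitC iTreg, with 0.913 and 3.47 CPM in Treg and 0.900 and 1.34 CPM in naive cells. Over the start (chr16:58718396-58719212) it was 7.28 and 14.2 CPM against 1.75 and 2.87 CPM. Both of these stood on few reads, 12 to 49 per TGFβ library, and Treg were not called different from naive cells in either (adjusted p = 0.073 and 0.077). The pair downstream was called: the wider one had 39.4 and 58.2 CPM in TGFβ against 20.0 and 20.6 CPM in RA+VitC iTreg, and 21.1 and 18.9 CPM in Treg against 6.69 and 5.86 CPM in naive cells (log2 fold change 1.66, SE 0.16, adjusted p = 6.1e-22). In the other Treg were 2.73 log2 units higher (SE 0.27). In both of the downstream regions RA+VitC iTreg and Treg were at like levels, with naive cells below. Treg means there were under their inputs (20.0 against 21.9 CPM and 9.76 against 13.3 CPM). Naive means were further under theirs (6.27 against 19.3 CPM and 1.45 against 14.0 CPM).

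Of 33 genes on a Treg signature list 7 held 12 of the 1261 regions, which is 7.10% of the list's 169 regions at 10 CPM or more in TGFβ iTreg, near the 5.99% over all such regions. Besides Foxp3 and Il2ra they included Cd83, Il10, Nrp1 and Rgs1. The same list held 16 of the regions higher in RA+VitC iTreg. A region 8761 bp upstream of Il10, the gene of an anti-inflammatory cytokine, had 26.7 and 25.5 CPM in TGFβ iTreg against 6.26 and 12.5 CPM in RA+VitC iTreg, and 7.18 and 5.75 CPM in Treg against 1.80 and 2.36 CPM in naive cells (log2 fold change 1.57, SE 0.27, adjusted p = 1.7e-07). Another Il10 region further upstream was not called between Treg and naive cells (adjusted p = 0.19). Near Nrp1, which encodes neuropilin 1, a surface marker of thymus-derived Treg, 4 regions belonged to the set and 4 to the reverse set, so the locus held both directions. Of the 12 regions on the list 4 were higher and 2 lower in Treg, against 21.1% and 21.6% of regions at that level.

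Among lists of other helper fates, Th1 had the largest share, 9 of 57 regions (15.8%) at Eomes, Fasl, Ifng, Il12rb2 and Il18rap, and no region higher in RA+VitC iTreg. Ifng, the gene of interferon-γ, held 5 of them, all outside the transcript, while the region over its start was at 12.3 CPM in TGFβ and 11.2 CPM in RA+VitC iTreg. The highest, 17369 bp downstream of the start (chr10:117895473-117899982), had 74.0 and 72.8 CPM in TGFβ against 26.0 and 31.6 CPM in RA+VitC iTreg, and 24.4 and 21.8 CPM in Treg against 15.2 and 18.2 CPM in naive cells (log2 fold change 0.43, SE 0.13, adjusted p = 0.0058). Without Treg library 1 (log2 fold change 0.35) or naive library 1 (0.31), with DESeq2, and thinned to equal depth (0.35), this region did not pass. Of the 5 Ifng regions 3 were higher in Treg than in naive cells and 0 lower. Over regions at 10 CPM or more in TGFβ iTreg the shares were 21.1% and 21.6%. Of the 3 Ifng regions, 1 passed when thinned. The furthest downstream of them had 10.9 and 13.2 CPM in TGFβ against 3.50 and 3.13 CPM in RA+VitC iTreg, and Treg were 2.23 log2 units above naive cells (SE 0.33, adjusted p = 1.4e-09).

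The Th17 list had 1 region of 63 (1.59%). It lay downstream of Il17a, the gene of the cytokine that defines this fate (chr1:20733814-20735108, intergenic), at 18.8 and 32.6 CPM in TGFβ iTreg against 2.75 and 2.61 CPM in RA+VitC iTreg, a ratio of 9.59. Treg had 0.261 and 1.20 CPM and naive cells 1.16 and 1.54 CPM, which edgeR did not separate (adjusted p = 0.20). It was the only region the table assigns to Il17a. Th2 genes held 4 of 52 regions (7.69%), with one downstream of Ccr3, an eotaxin receptor gene, at 65.5 and 67.2 CPM in TGFβ against 23.5 and 22.5 CPM in RA+VitC iTreg and 7.96 and 8.63 CPM in Treg against 5.66 and 5.96 CPM in naive cells. Follicular helper genes held 6 of 116 (5.17%). Of these, a region 122615 bp downstream of the start of Icos, a costimulatory receptor gene, had 66.7 and 54.4 CPM in TGFβ against 19.0 and 17.0 CPM in RA+VitC iTreg, while the region over the Icos start stood at 79.5 and 90.8 CPM against 82.6 and 69.5 CPM.

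T cell activation genes held 9 of 175 regions (5.14%), at Egr3, Fos, Havcr2, Icos, Irf4 and Rel. A region near Irf4, a transcription factor that T cell receptor signals induce, averaged 67.5 ± 3.61 CPM in TGFβ and 33.7 ± 2.59 CPM in RA+VitC iTreg (SD, n = 2 each), and Treg were 0.60 log2 units above naive cells (SE 0.16, adjusted p = 0.0015), a call lost without naive library 2 (log2 fold change 0.56) and with reads thinned to equal depth (0.27). One upstream of Rel, an NF-κB subunit gene, had 37.6 and 33.6 CPM against 14.3 and 14.9 CPM, and in Treg 26.0 and 26.7 CPM against 11.7 and 9.76 CPM in naive cells (log2 fold change 1.28, SE 0.14, adjusted p = 1.1e-18). With reads thinned to equal depth it was 0.51 and did not pass. Its RA+VitC iTreg mean of 14.6 CPM lay under the input of 24.6 CPM.

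TGFβ pathway genes held 6 of 138 regions (4.35%), against 5.99% over all such regions. Of the 6, 0 were higher and 3 lower in Treg, where 21.1% and 21.6% of regions at that level were. A region 27266 bp upstream of Smad3, a transducer of TGFβ signals, had 20.6 and 21.3 CPM in TGFβ against 8.26 and 9.93 CPM in RA+VitC iTreg, with 1.88 CPM in Treg and 2.44 CPM in naive cells. An intronic region of Tgfbr3, the co-receptor betaglycan, was of the naive-level class, with 27.9 and 19.9 CPM in TGFβ, 12.5 and 11.2 CPM in RA+VitC iTreg, 22.1 and 19.5 CPM in Treg and 48.4 and 42.8 CPM in naive cells (Treg over naive log2 fold change -1.15, SE 0.11, adjusted p = 1e-23). All these Tgfbr3 means but the naive one were below their inputs.

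Retinoic acid response genes held 7 of 61 regions (11.5%) and 13 regions of the reverse set. The 7 included regions counted for Ncor1, Rarg, Rdh10 and Rxra. Lists count a region by its nearest transcript or its nearest start. A region counted for Rdh10 lay in an intron of Stau2, 152106 bp from the Rdh10 start. Upstream of Rarg, a retinoic acid receptor gene, TGFβ iTreg had 18.2 and 22.7 CPM against 9.01 and 11.2 CPM in RA+VitC iTreg, and Treg stood highest with 40.6 ± 0.86 CPM against 15.5 ± 0.38 CPM in naive cells (SD, n = 2 each) (log2 fold change 1.37, SE 0.12, adjusted p = 4.4e-29). At Rarg the RA+VitC iTreg mean of 10.1 CPM was the lowest of the 4 groups and lay below its input of 15.1 CPM.

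Genes of DNA methylation and its removal held 7 of 64 regions (10.9%), counted for Gadd45b, Idh2, Tet2 and Zbtb38, and no region of the reverse set. Regions 9920 and 12746 bp from the Gadd45b start had Gng7 as their nearest transcript. The region downstream of Tet2, which encodes one of the enzymes that make 5hmC, had 22.4 and 22.7 CPM in TGFβ against 7.26 and 9.40 CPM in RA+VitC iTreg, and 6.26 and 6.71 CPM in Treg against 2.83 and 2.77 CPM in naive cells (log2 fold change 1.18, SE 0.25, adjusted p = 4.6e-05). At this Tet2 region Treg and naive means were under their inputs (6.49 against 8.01 CPM and 2.80 against 9.88 CPM). Naive T cell genes held 5 of 222 regions (2.25%). Among them, a region far upstream of Satb1, a chromatin organiser, had 20.6 and 16.6 CPM in TGFβ against 6.26 and 10.2 CPM in RA+VitC iTreg, and 22.1 and 21.1 CPM in Treg against 31.4 and 33.0 CPM in naive cells (log2 fold change -0.60, SE 0.11, adjusted p = 3.1e-06).

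Lists of defining genes served as a check of the cells. Summed over the regions of T cell identity genes, levels were 7436 and 7937 CPM in TGFβ, 8907 and 8744 CPM in RA+VitC iTreg, and between 8170 and 9509 CPM for sorted cells, and 2 of the 155 regions at 10 CPM or more were in the set. Myeloid and dendritic cell genes held 3 of 12 regions, at Flt3, Itgam and Spi1, with summed levels of 496 and 492 CPM in TGFβ against 328 and 363 CPM in RA+VitC iTreg, 405 and 406 CPM in Treg and 513 and 520 CPM in naive cells. CD8 and NK cell genes held 2 of 12 (562 and 577 CPM in TGFβ against 442 and 457 CPM in RA+VitC iTreg, 694 and 697 CPM in Treg and 766 and 761 CPM in naive cells), and B cell genes 0 of 5 (260 and 288 CPM in TGFβ against 237 and 257 CPM in RA+VitC iTreg, 287 and 283 CPM in Treg and 251 and 254 CPM in naive cells). None of the lists was at 0 in any group, and the part of other cells in the results was not tested. A region over an exon and intron of Spi1, which encodes the myeloid transcription factor PU.1, averaged 42.3 ± 2.37 CPM in TGFβ and 16.2 ± 0.31 CPM in RA+VitC iTreg (SD, n = 2 each), with 5.48 and 3.11 CPM in Treg against 1.54 and 1.23 CPM in naive cells, where TGFβ iTreg stood above all other groups.

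Several genes held many regions of the set, and within one gene the regions were not alike. Of 903 symbols with a region, 143 had 2 or more and 37 had 3 or more. Slc4a4, a sodium bicarbonate cotransporter gene, had 5, all of the naive-level class. All 5 were called lower in Treg, against 21.6% of regions at 10 CPM or more in TGFβ iTreg. The summed levels of the 5 were 102 and 96.5 CPM in TGFβ against 36.0 and 44.4 CPM in RA+VitC iTreg. In Treg they were 44.6 and 41.2 CPM against 136 and 145 CPM in naive cells. Here TGFβ iTreg lay between naive cells and the low levels that RA+VitC iTreg and Treg had alike. RA+VitC iTreg and Treg were under their inputs at all 5 Slc4a4 regions. TGFβ iTreg were under theirs at each but chr5:89471421-89474220 (22.9 CPM against an input of 16.7 CPM). Runx2, a transcription factor gene, had 5 regions, of which 4 were called higher in Treg, against 21.1% of regions at that level. The summed levels of the 5 were 102 and 92.7 CPM in TGFβ against 41.8 and 44.1 CPM in RA+VitC iTreg. In Treg they were 64.2 and 55.2 CPM against 28.3 and 29.1 CPM in naive cells.

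Sox5, a transcription factor gene, had the most, 6 of the 159 regions assigned to it, and Treg were higher in 1 and lower in 4, none of which DESeq2 called lower. Thinned to equal depth, 0 of the 5 passed. Of all regions at 10 CPM or more in TGFβ iTreg, 21.1% were called higher and 21.6% lower. Cxcr4, the receptor of the chemokine CXCL12, had 5 regions upstream of it, none called between Treg and naive cells, with summed levels of 64.3 and 69.1 CPM in TGFβ against 22.5 and 23.5 CPM in RA+VitC iTreg, 41.1 and 44.3 CPM in Treg and 40.5 and 38.6 CPM in naive cells. At Fut8, with 4 regions, the sums were 259 and 238 CPM in TGFβ against 116 and 98.7 CPM in RA+VitC iTreg and 54.0 and 50.6 CPM in Treg against 46.6 and 48.7 CPM in naive cells. Itga9, an integrin gene, had 4 regions of the naive-level class, at 164 and 134 CPM in TGFβ against 65.8 and 67.7 CPM in RA+VitC iTreg, while Treg at 142 and 137 CPM and naive cells at 126 and 127 CPM lay near the TGFβ level. Fut8 and Itga9 thus had like contrasts between the 2 kinds of iTreg on opposite levels of the sorted cells.

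**Figure D5:**
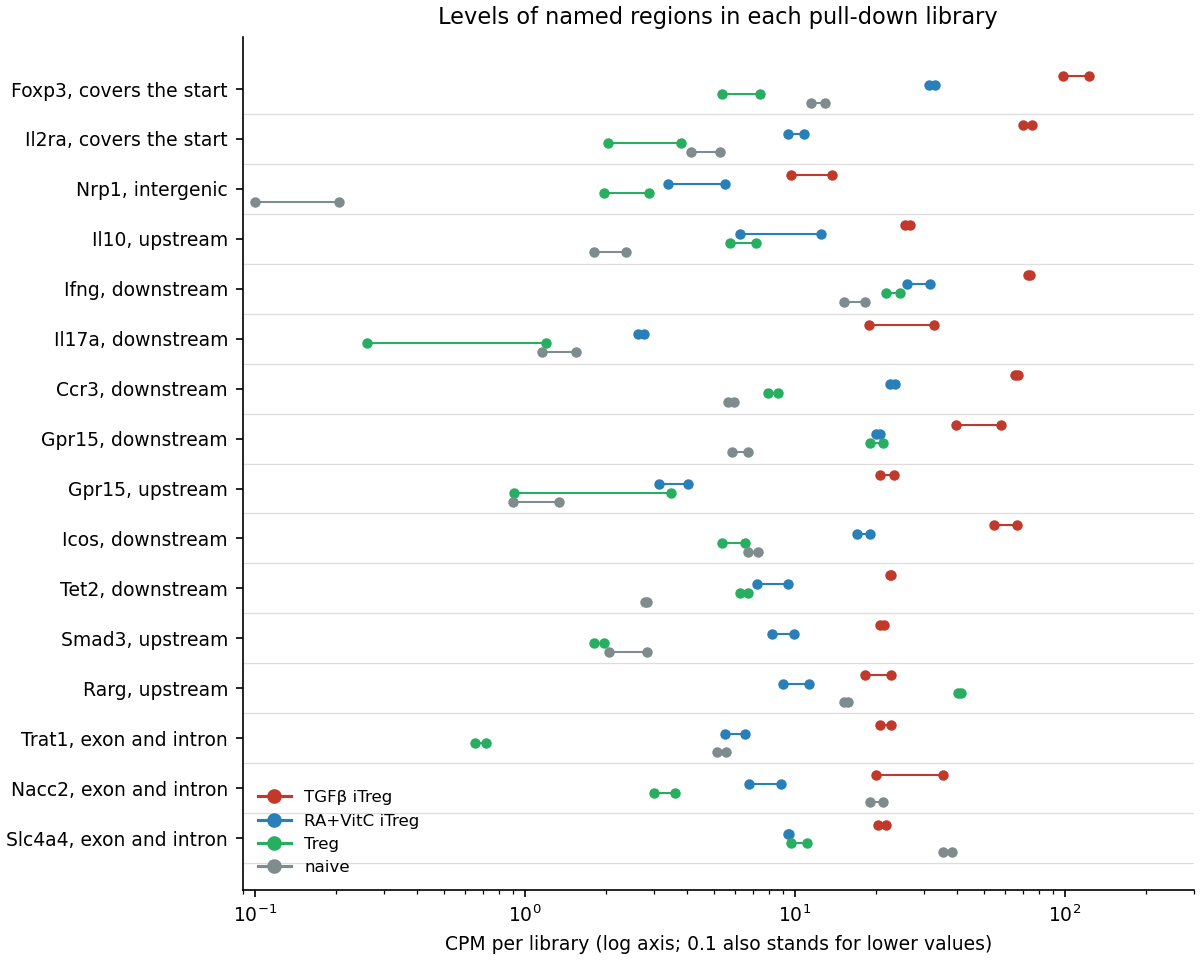
CPM of 16 named regions (log axis) in each of the 2 pull-down libraries of TGFβ iTreg, RA+VitC iTreg, Treg and naive cells, with a line between the libraries of a group and values under 0.1 drawn at 0.1. TGFβ iTreg lie right of RA+VitC iTreg in every row by choice, Treg lie right of TGFβ iTreg at Rarg, and naive cells lie right of them at Slc4a4.

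In the inputs TGFβ and RA+VitC iTreg were compared as well. Of the 1261 regions 796 had enough reads to be tested in the inputs, and edgeR called 0 of them between TGFβ and RA+VitC iTreg inputs at an adjusted p under 0.05, as it called 0% of all 44917 tested. At an unadjusted p under 0.05 it was 50 of the 796, 21 higher and 29 lower in TGFβ inputs, where 4.91% of all tested regions had such a p. DESeq2 also called 0, with 9 at an unadjusted p under 0.05. Median input levels over the set were 7.77 CPM in TGFβ and 7.65 CPM in RA+VitC inputs. A median region had 8 to 10 reads in an iTreg input, so small differences were not detectable at this depth.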

How the data were processed

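Libraries were CMS-IP pull-downs and inputs, 2 of each per group. The deposited values are raw read counts per region, made by the authors over the union of broad peaks on mm9, per the labels. Per the submitters' processing notes the tools included MACS2 2.1.0.20151222, SAMtools 1.7, bcl2fastq 2.20.0.442 and Trim Galore 0.4.2. Which aligner and counter were used is not given in the sources used here. CPM here is a count over the library's sum in all regions. Treg and naive pull-downs, and the iTreg inputs, were compared with edgeR 4.0.16 (quasi-likelihood F test, TMM, filterByExpr with a minimum count of 10, Benjamini-Hochberg at 0.05), on all 8 pull-downs in 1 fit with 4 residual degrees of freedom or on the inputs, with DESeq2 1.42.0 as an alternative. The fit was tested on simulated data. Named regions were the 10 with the highest TGFβ level, the 10 with the largest ratio (RA+VitC set to at least 3 reads), the 6 largest called changes each way between Treg and naive cells, up to 3 per gene list, those of up to 10 symbols with the most regions, up to 8 promoters, and 3 on each side of the fold limit. Regions named as flanks of these, or chosen after their values were seen, are neighbours within a locus. Regions and lists were chosen with earlier results of these data known. TGFβ and RA+VitC libraries share a code in their titles, whose meaning the labels do not give, and Treg and naive libraries share a number. Deviations of libraries with the same code or number were hardly correlated, so they were not treated as pairs. Region sequences on mm9 were not used here.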

Additional observations from a re-analysis of the deposited data

How the results depend on the processing

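The number of regions that met the rule was 731 with TMM scaling, 755 with DESeq2 size factors (747 of them among the 1261), 423 at 20 CPM or more, 3716 at 5 CPM or more, 242 at 3-fold, 3576 at 1.5-fold, 759 with the TGFβ pull-down at least 2 times its input, and 1308 to 1732 with 1 library left out. Thinned to equal depth, 1581 met it, 1032 of them among the 1261. Treg were higher in 154 and lower in 120 regions with DESeq2, 120 and 177 where regions averaged 50 reads or more, 98 and 78 thinned, 166 and 106 among those at least 2 times their input, and 95 and 104 at 20 CPM or more. With 1 library left out the ranges were 198 to 230 higher and 206 to 225 lower. Naive cells were at least 2 times RA+VitC iTreg in 19 regions at least 2 times their input, and in 231 to 241 with 1 library left out. Treg were so in 9, in 114 with TMM scaling, and in 196 to 199 with 1 library left out. With the replicate number as a block, Treg were higher in 273 and lower in 275, and same-coded or same-numbered libraries correlated at 0.003 (TGFβ with RA+VitC) and 0.016 (Treg with naive). Inputs gave 0 calls under each alternative. The cause of these differences was not tested. Median reads per region were 26 and 34 in the TGFβ libraries.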
